A study of Homo sapiens with 60 samples.

Results

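The respiratory chain subunit genes are the genes whose RNA is translated into the parts of complexes I to V of the inner mitochondrial membrane. They were taken from the count table by symbol: MT-ND, MT-CO, MT-ATP and MT-CYB for the mitochondrial genome, and NDUFA, NDUFB, NDUFC, NDUFS, NDUFV, SDHA to SDHD, UQCR, CYC1, COX4 to COX8 and ATP5 for the nuclear genome. Pseudogenes and the NDUFAF assembly factors were left out. This gave 102 of the 60675 genes of the table, of which 13 are encoded by mitochondrial DNA and 89 by nuclear chromosomes. By complex, the mitochondrial genome contributed 7 genes to complex I, 1 to complex III, 3 to complex IV and 2 to complex V. The nuclear genes numbered 37 for complex I, 4 for complex II, 10 for complex III, 19 for complex IV and 19 for complex V. The symbol rule also left out 2 readthrough genes, 6 non-coding genes and 174 pseudogenes.

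RNA was sequenced from HepG2, a human liver cancer cell line, after 24 h of culture with an agent. The tested groups were water extracts of Aucklandiae Radix, Schisandrae Fructus, Zizyphi Semen, Longan Arillus and Liriopis Tuber at 20, 100 and 500 µg/mL, of Polygalae Radix at 18, 90 and 450 µg/mL, and wortmannin, an inhibitor of phosphoinositide 3-kinases, at 10 µM. The reference was a DMSO vehicle, given as 0.1% in the sample labels and as 2% in the design text, so its level is uncertain. Each of the 20 groups had 3 libraries, 60 in all, and whether these were separate cultures is not stated, so p-values measure the spread between these libraries, which may be technical. The libraries also carry a sample code, and the codes form 5 sets, whose meaning is not stated: vehicle and wortmannin have a set each, and the herbs share sets as Schisandrae with Liriopis, Longan with Zizyphi and Polygalae with Aucklandiae. In a comparison with vehicle, the agent and the code set cannot be told apart. Between doses of a herb and within a pair of herbs the code set is shared.

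Complex I (NADH dehydrogenase), complex III (cytochrome c reductase) and complex IV (cytochrome c oxidase) pump protons as electrons pass to oxygen, complex II (succinate dehydrogenase) feeds electrons in without pumping, and complex V (ATP synthase) uses the proton gradient to make ATP. All subunits of complex II are nuclear, while the other complexes are built from both genomes. The mitochondrial genes are transcribed as long polycistronic RNAs from both strands and cut apart, and MT-ND6 is the only protein gene read from the light strand. Hepatocytes are rich in mitochondria, and HepG2 cells in glucose medium draw much of their ATP from glycolysis.

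The libraries held 20.2 to 36.4 M counts (M, counts times 1e6; median 25.8 M). HepG2 identity was checked with 8 hepatocyte genes, including ALB and APOB, whose medians over libraries ranged from 69.3 to 25931 CPM (counts per 1e6 counts, with library sizes scaled by the TMM method). Of 6 genes of other cell types, PTPRC was at 0 in all libraries and CD68 had the highest median, 45.7 CPM. One vehicle library stood apart: replicate 1 had the second lowest slope of expression on gene GC content, -1.23 log2 units per unit of GC fraction, against 0.07 and 0.10 in vehicle replicates 2 and 3 and a median of 0.10 over all libraries. For many results that rest on this library, values or counts of calls without it are also given.

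Of the 102 genes, 94 had enough counts to be tested: the 13 mitochondrial genes and 81 nuclear ones. The 8 untested genes are isoforms known from muscle, testis, lung or hypoxic cells or near-copies, and none exceeded 0.499 CPM in any library. COX6A2, the heart and skeletal muscle form of complex IV subunit 6A, and COX7B2 had 0 counts in all 60 libraries, which allows up to 0.0824 to 0.148 CPM per library (3 counts, counting error only). COX4I2 and COX8C had 3 counts each over the whole series, while COX7A1 had 84, COX6B2 74, ATP5MGL 61 and NDUFA4L2 233. Their ubiquitous counterparts were present: in vehicle, COX4I1 averaged 115 ± 7.69 CPM, COX6A1 92.9 ± 4.31, COX6B1 88.9 ± 3.29, COX8A 63.8 ± 7.29, NDUFA4 43.5 ± 3.03 and COX7A2 28.5 ± 0.63 CPM (SD, n = 3 each).

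The mitochondrial genes were far more abundant than the nuclear ones. In vehicle, per kilobase of transcript, the 13 ranged from 3326 CPM per kb for MT-ND6 to 22878 CPM per kb for MT-CO2, a copper-bearing subunit of cytochrome c oxidase. MT-ND4 followed at 18907, MT-CO3 at 18185, MT-CO1 at 17715 and MT-ATP6 at 17240 CPM per kb. The 81 nuclear genes ranged from 2.37 CPM per kb for UQCRHL, a near-copy of UQCRH whose counts are uncertain, to 266 CPM per kb for ATP5MF. The next were ATP5F1B at 257 CPM per kb and ATP5F1A at 181 CPM per kb, the beta and alpha chains that form the catalytic head of ATP synthase. These lengths are of one principal transcript per gene, so the order of close neighbours is uncertain.

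The 13 mitochondrial mRNAs moved as a block from library to library. Their deviations from the group means, set against the mean deviation of the other 12, gave Pearson's r between 0.66 (MT-ATP8) and 0.98 (MT-ND4) over 60 libraries, which share depth and scaling within a library. MT-ND6, the light-strand gene, had r = 0.77. The pooled SD within groups was 0.22 to 0.32 on the log2 scale for the 13 (median 0.29). Among nuclear genes it was 0.18 at the median for the 48 with transcripts under 1000 bases and 0.11 for the 33 longer ones, and it fell with transcript length (Spearman's rho = -0.57 over 81 genes, as a description). The tests were therefore less sensitive for mitochondrial genes, with standard errors of 0.17 to 0.25 on the log2 scale, than for nuclear genes, with a median standard error of 0.13.

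Together the 13 mitochondrial mRNAs took the largest share of counts in vehicle. The share was 10.5% to 11.3% in the 3 wortmannin libraries, 9.57% to 9.98% at the high dose of Aucklandiae and 9.31% to 11.2% at the high dose of Polygalae, against 16.1%, 13.01% and 13.1% in vehicle replicates 1, 2 and 3. The 95% Wilson interval of a library's share was 0.00917 to 0.0143 percentage points either side, for counting error only. In all 19 treated groups the mean share lay below the vehicle mean of 14.1% ± 1.77 (SD, n = 3), and in 13 of them all 3 libraries lay below every vehicle library. The groups were not cleanly separated, however: 7 of 57 treated libraries, from 6 groups, reached the lowest vehicle library, the highest being Aucklandiae medium replicate 1 at 16.6%.

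**Figure D1:**
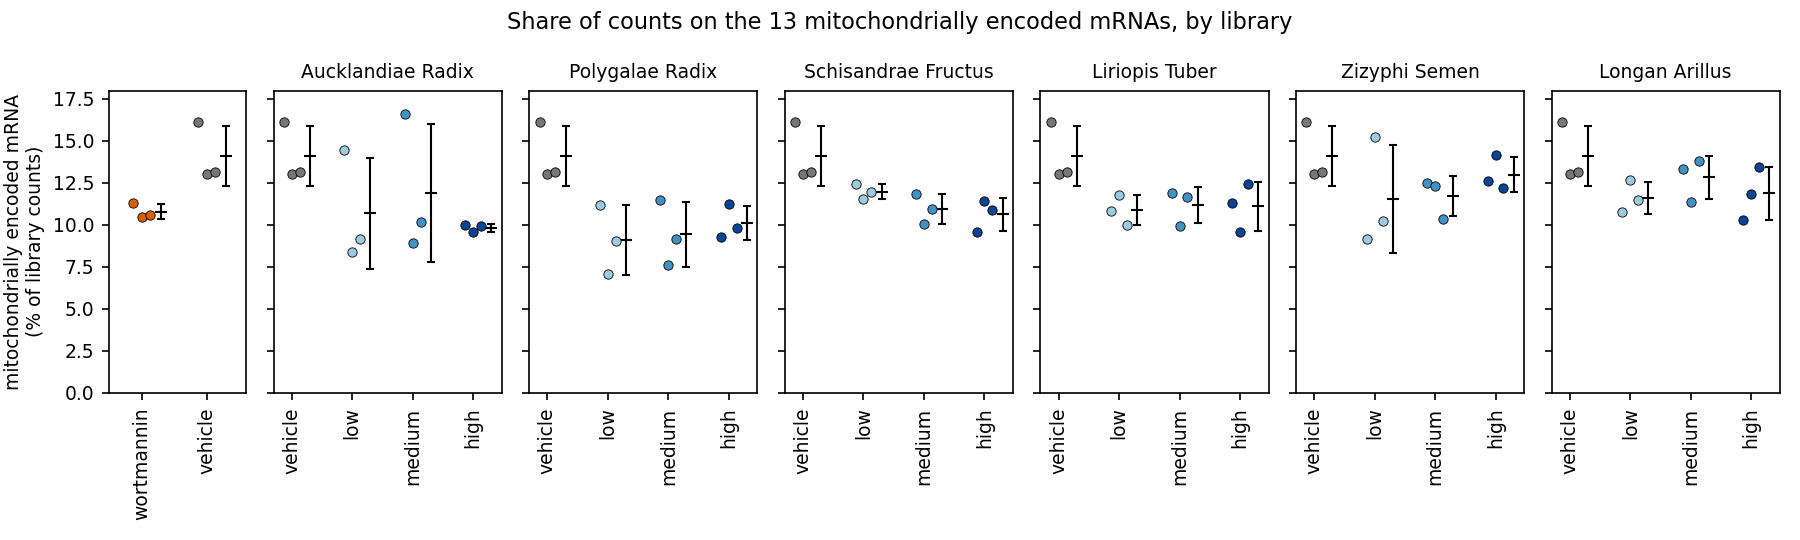
Share of library counts on the 13 mitochondrially encoded mRNAs, in percent, for wortmannin beside vehicle and for each herb from vehicle through low, medium and high dose. Points are libraries, bars the mean ± SD of 3, and the 3 vehicle points are repeated in each panel. Vehicle replicate 1 (16.1%) lies above the other 2 vehicle libraries, and low and medium doses of Aucklandiae each hold 1 library at 14.5% or above.

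Each of the 13 mitochondrial genes had its highest group mean in vehicle, and all 247 log2 fold changes (13 genes in 19 treated groups) were below 0. The medians over the 13 ran from -0.16 at the high dose of Zizyphi to -0.72 at the low dose of Polygalae, beside medians near 0 over all tested genes. These 19 comparisons share the 3 vehicle libraries, so they are not independent of each other. A call here is an adjusted p under 0.05 in edgeR's quasi-likelihood test, adjusted by Benjamini-Hochberg over all 16517 genes tested. At the high doses 9 of 13 fell with Aucklandiae, where 26.1% of all genes were called and 12.5% called lower, and 9 of 13 with Polygalae, where 20.1% were called and 9.94% called lower. With wortmannin 5 of 13 fell, beside 32.6% of all genes called and 16.2% called lower. At the low dose of Polygalae all 13 fell, beside 15.6% of all genes called and 7.01% called lower, and at its medium dose 11 fell, beside 11.7% and 5.73%. At the medium dose of Aucklandiae 1 fell, beside 5.52% and 2.47%. In the other 13 treated groups none passed. No mitochondrial gene rose in any of the 19 comparisons with vehicle.

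**Figure D2:**
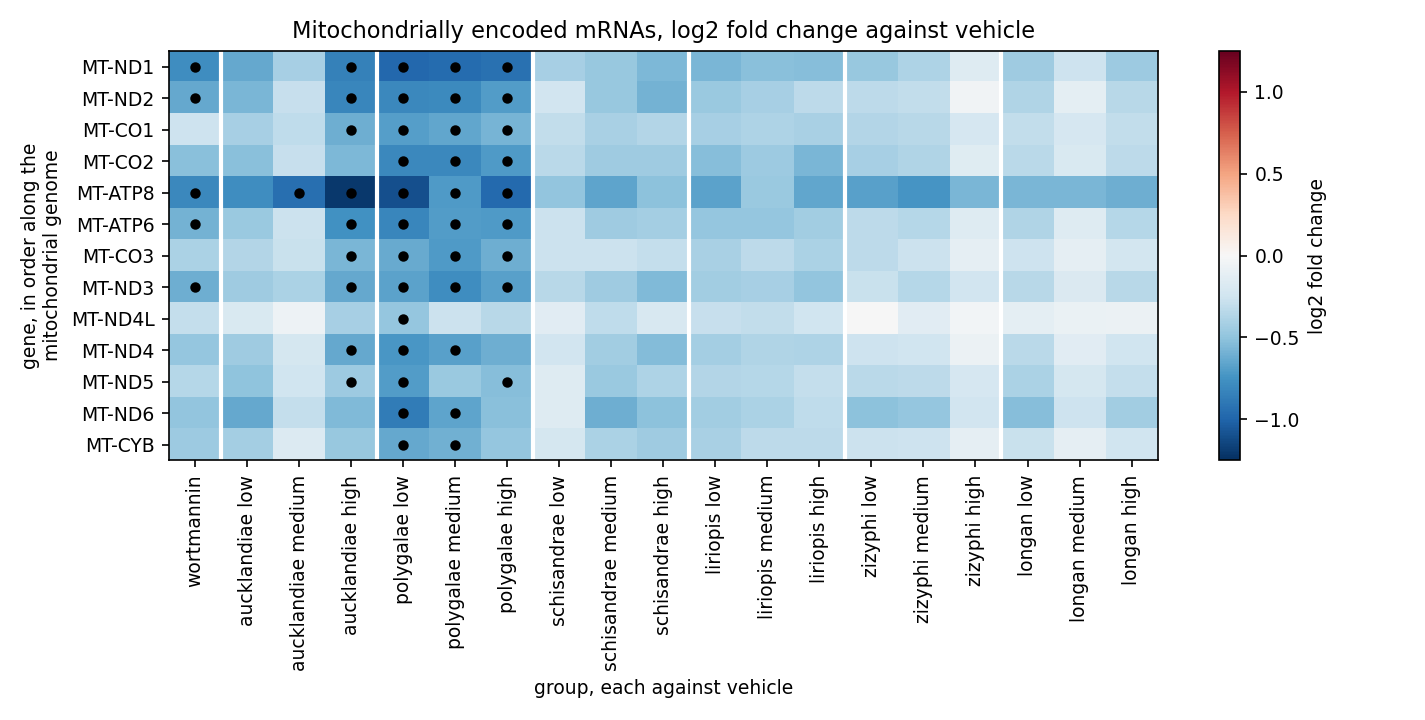
Log2 fold change against vehicle of the 13 mitochondrially encoded mRNAs (rows, in order along the mitochondrial genome) in the 19 treated groups (columns). Colour gives the fold change and a black dot an adjusted p under 0.05 (edgeR). All cells are below 0, and the 48 dots fall in wortmannin, Aucklandiae and Polygalae columns.

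MT-ATP8, which encodes a small subunit of the membrane part of ATP synthase and whose reading frame overlaps that of MT-ATP6, had the largest fold change. It had 1089, 868 and 908 CPM at the high dose of Aucklandiae, against 2503, 2467 and 1643 CPM in vehicle. All 3 treated libraries lay below all 3 vehicle libraries, and the log2 fold change was -1.21 ± 0.24 (SE, adjusted p = 0.000149, edgeR). At the high dose of Polygalae it had 1135, 1131 and 1103 CPM, again below every vehicle library (log2 fold change -0.97 ± 0.24, adjusted p = 0.00273, edgeR). In wortmannin it had 1242, 1100 and 1450 CPM, for a log2 fold change of -0.80 ± 0.24 (adjusted p = 0.00820, edgeR), again with no overlap. The division of reads between MT-ATP8 and MT-ATP6 depends on the authors' counting.

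MT-ND1, a membrane subunit of complex I, had 6280, 8637 and 6440 CPM at the high dose of Polygalae and 9004, 4814 and 6755 CPM at its low dose, against 16205, 11451 and 13040 CPM in vehicle. Neither dose overlapped with vehicle, and the log2 fold changes were -0.93 ± 0.25 (adjusted p = 0.00512) and -0.98 ± 0.25 (adjusted p = 0.00445, edgeR). MT-CO1, the catalytic subunit of cytochrome c oxidase, had 18813, 17349 and 17599 CPM at the high dose of Aucklandiae, against 32355, 24341 and 25252 CPM in vehicle (log2 fold change -0.61 ± 0.18, adjusted p = 0.00885, edgeR), and the call ended without vehicle replicate 1 (-0.46). MT-ND6 had 1239, 1257 and 1235 CPM in wortmannin, against 2223, 1514 and 1502 CPM in vehicle. These groups did not overlap either, but the change of -0.49 ± 0.22 did not pass (adjusted p = 0.0898, edgeR).

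Most of these calls needed vehicle replicate 1. Without it, 1 of 13 was called with wortmannin, 1 at the high dose of Aucklandiae and 2 at the high dose of Polygalae, beside 3 at the low dose of Polygalae and 0 in the other 15 treated groups. For the fits without that library, and for those with GC slope below, shares of all genes called are not given here. The median of the 13 stayed below 0 in all 19 groups, between -0.02 and -0.58, but not every gene did. Without that library 10 of 13 genes were below 0 at the high dose of Zizyphi, 11 at the medium dose of Longan, and 12 each at the medium dose of Aucklandiae and the low doses of Schisandrae and Zizyphi, with all 13 below 0 in the other groups. MT-ATP8 at the high doses of Aucklandiae and Polygalae and with wortmannin, and MT-ND1 at the high dose of Polygalae, were the ones kept at high doses. Within groups, a library's GC slope and its mean deviation over the 13 genes gave Pearson's r = -0.22 over 60 libraries, as a description. With each library's GC slope in the model, added after the data had been seen, the counts were 1 for wortmannin, 5 for Aucklandiae high and 7 for Polygalae high. The medians of the 13 were then -0.39, -0.50 and -0.55, beside -0.49, -0.61 and -0.61 without that term.

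Between doses of the same herb, where the code set is shared, no mitochondrial gene was called. The medians over the 13 genes of high against low dose were -0.20 for Aucklandiae, -0.16 for Schisandrae, 0.11 for Polygalae, 0.17 for Zizyphi, 0.02 for Longan and 0.04 for Liriopis. Between herbs at high dose the medians were 0.03 for Polygalae against Aucklandiae, -0.03 for Schisandrae against Liriopis and 0.14 for Zizyphi against Longan, also with 0 of 13 called. In these 9 comparisons 0 of 13 genes reached an unadjusted p under 0.05 and DESeq2 also called 0. With standard errors of 0.17 to 0.25, changes of this size could not be told from the spread between libraries. The count depends on the filter on low counts, as a fit of all 35717 genes that had a count called more. For high against low dose, 9 of 13 were then called lower for Aucklandiae and 6 lower for Schisandrae. In that fit 4 were called higher for Zizyphi and 1 higher for Polygalae. The share of all genes called in it is not given here, so these counts cannot be set beside it.

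The mitochondrial rRNAs lie upstream of MT-ND1 on the heavy strand and are not subunit genes, but they show how other RNAs of the same genome behaved. MT-RNR1, the small-subunit mitochondrial rRNA, had 13087, 13299 and 12514 CPM at the high dose of Schisandrae, against 7991, 6321 and 6344 CPM at the low dose. The medium dose lay between, at 9532, 8263 and 8787 CPM, and vehicle had 7000, 6830 and 6669 CPM. The high-dose libraries overlapped with no other dose and no vehicle library. The log2 fold change was 0.91 ± 0.11 against the low dose (adjusted p = 3.78e-08), 0.92 ± 0.11 against vehicle (adjusted p = 2.24e-08) and 1.01 ± 0.12 against the high dose of Liriopis, of the same code set (adjusted p = 2.65e-09, edgeR). MT-RNR2, the large-subunit rRNA, had 32812, 34789 and 31225 CPM at the high dose, against 30428, 29367 and 27128 CPM at the low dose. These libraries did not overlap, but the change of 0.19 ± 0.12 did not pass (adjusted p = 0.404, edgeR). None of the 13 mRNAs was called in these 3 comparisons, and their medians were -0.16, -0.44 and -0.03.

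**Figure D3:**
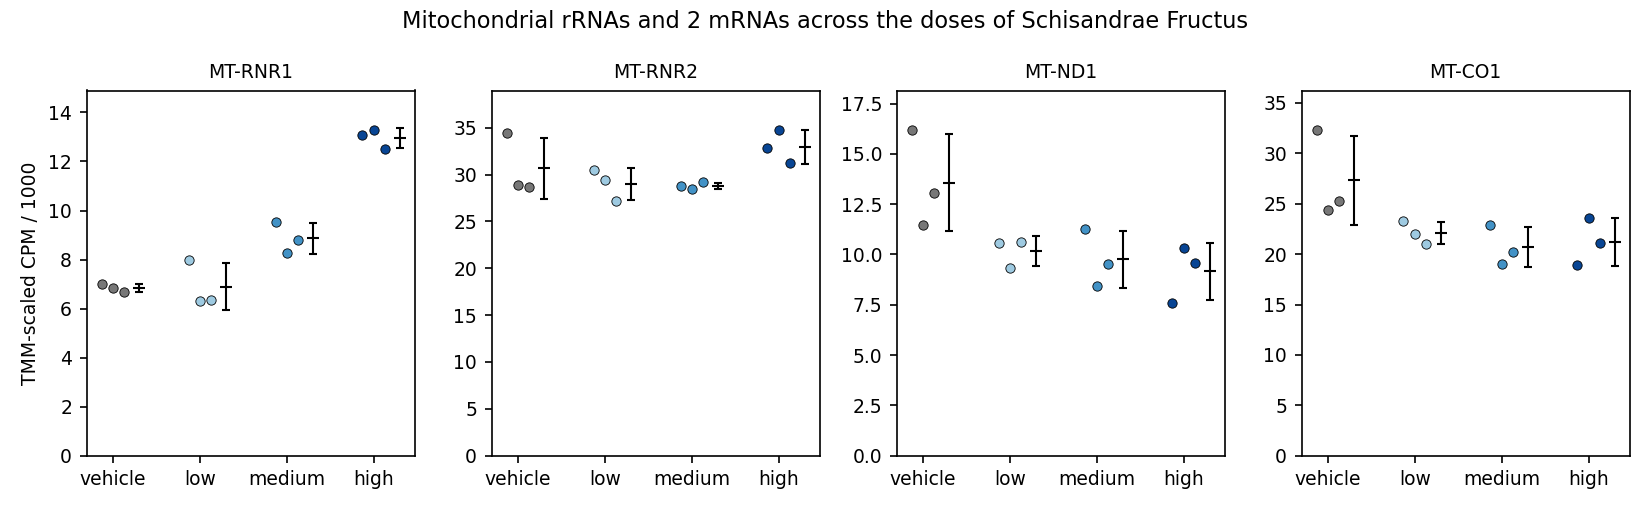
TMM-scaled CPM, on axes divided by 1000, of both mitochondrial rRNAs and of MT-ND1 and MT-CO1 in vehicle and at the low, medium and high dose of Schisandrae Fructus. Points are libraries and bars the mean ± SD of 3. MT-RNR1 reaches 12514 to 13299 CPM at the high dose, above every other library shown, while MT-RNR2 at the high dose lies above the low and medium doses but overlaps with vehicle, and both mRNAs overlap between doses.

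Nuclear subunit promoters often carry sites for NRF1, for ETS factors such as GABPA and for YY1. Promoter windows from RefSeq (build GRCh38.p14, 250 bases before to 50 after the gene start) matched 70 of 89 nuclear genes. The NRF1 palindrome, searched on both strands, was found in 24.3% of them and in 6.28% of all 27305 promoters. The ETS letters CCGGAAG were found in 28.6% against 10.7%, the YY1 motif in 5.71% against 0.916%, and any of the 3 in 50% against 16.3%. A match is a description of the letters and not a site. The 250 bases before the start are shown for the 4 nuclear genes that the dose comparisons turn on, chosen after their calls were seen, with NRF1 matches in capitals. SDHA, lower at high dose with both herbs, has 4 such matches and UQCRC1 has 1, while ATP5F1A and ATP5IF1 have none of the 3 motifs in these bases. They lie at chr5:218070-218319 (plus strand), chr3:48609647-48609896 (minus strand), chr18:46104228-46104477 (minus strand) and chr1:28235874-28236123 (plus strand), in that order.
SDHA: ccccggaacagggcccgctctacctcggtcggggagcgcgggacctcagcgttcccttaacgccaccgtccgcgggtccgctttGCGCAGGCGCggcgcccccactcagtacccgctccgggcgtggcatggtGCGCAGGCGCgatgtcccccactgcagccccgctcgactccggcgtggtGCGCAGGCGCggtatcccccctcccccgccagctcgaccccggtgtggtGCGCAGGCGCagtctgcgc
UQCRC1: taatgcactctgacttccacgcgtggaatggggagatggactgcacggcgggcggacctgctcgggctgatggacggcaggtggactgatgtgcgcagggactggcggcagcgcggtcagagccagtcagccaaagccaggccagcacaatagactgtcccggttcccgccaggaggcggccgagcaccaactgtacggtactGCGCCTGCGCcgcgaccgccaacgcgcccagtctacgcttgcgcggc
ATP5F1A: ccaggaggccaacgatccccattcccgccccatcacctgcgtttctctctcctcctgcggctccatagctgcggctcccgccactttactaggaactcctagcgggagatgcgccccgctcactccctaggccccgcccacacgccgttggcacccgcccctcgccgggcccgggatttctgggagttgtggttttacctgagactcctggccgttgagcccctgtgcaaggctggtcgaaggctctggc
ATP5IF1: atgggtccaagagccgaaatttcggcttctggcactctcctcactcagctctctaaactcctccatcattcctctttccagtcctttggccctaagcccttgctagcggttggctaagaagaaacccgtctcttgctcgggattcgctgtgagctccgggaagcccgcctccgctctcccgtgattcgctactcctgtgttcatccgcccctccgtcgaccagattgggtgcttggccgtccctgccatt

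Few nuclear subunit genes were called. At high doses against vehicle, 14 of 81 were called with Aucklandiae (12 higher, 2 lower), beside 26.1% of all genes, and 10 of 81 with Polygalae (5 higher, 5 lower), beside 20.1%. The Polygalae count was 4 to 6 when any 1 library was left out, and 6 of its 10 calls ended without vehicle replicate 1. Schisandrae gave 3 of 81 (2 higher, 1 lower) beside 15.7% of all genes, and Zizyphi 3 of 81 (all higher) beside 4.42%. Without vehicle replicate 1, 4 of the 14 Aucklandiae calls, 1 of the 3 Schisandrae calls and all 3 Zizyphi calls ended. Longan and Liriopis gave 0 of 81 beside 1.76% and 0.0484% of all genes. In those 2 comparisons DESeq2 also called 0, and 8 and 7 members had an unadjusted p under 0.05. Wortmannin gave 11 of 81 (7 higher, 4 lower) beside 32.6%, and 2 to 7 when any 1 library was left out. Of its 11 calls, 9 ended without vehicle replicate 1. Medians over the 81 lay between -0.08 (Liriopis) and 0.12 (Zizyphi). The summed level of the nuclear genes was 4273 to 6217 CPM over treated libraries and 5057 to 5357 CPM over vehicle libraries. Over the 12 medium and low doses together, 39 nuclear and 25 mitochondrial calls were made, beside 3.65% of all gene by comparison tests. Leaving out 1 vehicle library gave 15 to 30 nuclear and 3 to 25 mitochondrial calls. The nuclear calls were 19 and 5 at the low and medium dose of Polygalae (15.6% and 11.7% of all genes), 6 and 5 for Aucklandiae (4.45% and 5.52% of all genes) and 2 and 1 for Zizyphi (2.09% and 0.702%). Schisandrae gave 0 and 1 (0.0727% and 2.98%). Longan gave 0 at both (0.581% and 0.0666%) and Liriopis 0 at both (0.0303% each), with 13 and 8 and with 3 and 5 members at an unadjusted p under 0.05.

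Vehicle was the extreme group for some nuclear genes. Of 81 nuclear genes, 11 had their lowest group mean of all 20 groups in vehicle and 10 their highest. The same shares over all tested genes are not given here, so whether this is particular to subunit genes was not tested. ATP5F1B, for instance, had its lowest mean in vehicle and was higher than every vehicle library in 52 of 57 treated libraries. ATP5F1A was so in 53 of 57, but its lowest mean was at the high dose of Polygalae. Comparisons between doses and between herbs of a code set do not use the vehicle.

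ATP5IF1 encodes the inhibitor that stops ATP synthase from running backwards and hydrolysing ATP when the proton gradient is lost. It had 33.3, 37.4 and 31.6 CPM at the high dose of Aucklandiae, against 54.8, 42.4 and 45.0 CPM at the low dose. The groups did not overlap, and the log2 fold change was -0.48 ± 0.10 (adjusted p = 0.000653, edgeR), one of 2 nuclear subunit calls in that comparison, where 14.9% of all genes were called and 7.14% called lower. Against vehicle, with 59.4, 61.8 and 59.0 CPM, the log2 fold change at the high dose was -0.82 ± 0.10 (adjusted p = 2.44e-08, edgeR). ATP5IF1 also fell with Polygalae, to 41.3, 41.4 and 44.4 CPM at the high dose (log2 fold change -0.50 ± 0.10, adjusted p = 0.000248), 47.9, 32.5 and 40.2 CPM at the medium dose (-0.58 ± 0.10, adjusted p = 9.21e-05) and 49.0, 43.4 and 42.7 CPM at the low dose (-0.42 ± 0.10, adjusted p = 0.00320, edgeR). With Schisandrae at high dose it had 40.7, 45.2 and 50.7 CPM (-0.40 ± 0.10, adjusted p = 0.00408, edgeR). These calls held without any single library that was left out. For the low and medium dose of Polygalae only vehicle libraries were left out, so their dependence on a treated library was not tested. All 57 treated libraries, however, lay below the lowest vehicle library, with 31.6 to 55.8 CPM in treated libraries and 59.0 to 61.8 CPM in vehicle. A level below vehicle was therefore measured with every agent at every dose, and a further fall with dose was called for Aucklandiae. At high dose Polygalae was 0.31 ± 0.10 above Aucklandiae on the log2 scale (adjusted p = 0.0306, edgeR), a call that ended without any of 5 of the 6 libraries.

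SDHA, the flavoprotein of complex II that oxidises succinate, fell with dose in both herbs of that code set. With Polygalae it had 128, 122 and 133 CPM at the high dose, against 153, 174 and 158 CPM at the low dose, with 144, 140 and 146 CPM at the medium dose between them (log2 fold change high against low -0.34 ± 0.04, adjusted p = 3.08e-07, edgeR). With Aucklandiae it had 137, 135 and 134 CPM at the high dose, against 148, 162 and 165 CPM at the low dose (-0.23 ± 0.04, adjusted p = 0.000168, edgeR). In neither herb did the groups overlap, and both calls held without any single library. Against vehicle, with 146, 153 and 149 CPM, the high doses gave -0.23 ± 0.04 for Polygalae (adjusted p = 0.000147) and -0.14 ± 0.04 for Aucklandiae (adjusted p = 0.0121, edgeR), the last of which ended without vehicle replicate 2 (-0.13).

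The other complex II genes did not follow SDHA. SDHD, a membrane anchor, rose against vehicle with Polygalae at high dose, with 43.1, 46.2 and 44.8 CPM against 38.7, 36.4 and 38.3 CPM (log2 fold change 0.24 ± 0.08, adjusted p = 0.0190, edgeR), and the call ended without vehicle replicate 2 (0.21) or Polygalae replicate 2 (0.22). It overlaps TIMM8B on the opposite strand. Between high and low dose of Polygalae SDHD gave -0.03 ± 0.07, SDHC -0.02 ± 0.05 and SDHB, the iron-sulfur subunit, -0.13 ± 0.08, and none passed (adjusted p from 0.450 to 0.923, edgeR). With wortmannin SDHB fell, with 38.0, 35.5 and 34.8 CPM against 40.8, 41.4 and 45.4 CPM in vehicle (-0.23 ± 0.08, adjusted p = 0.0173), while SDHC rose by 0.15 ± 0.05 (adjusted p = 0.0257, edgeR). The SDHB call ended without vehicle replicate 3 (-0.19) or wortmannin replicate 3 (-0.21).

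Subunits of several complexes were lower at the high dose of Polygalae than at its low dose, though not all were below vehicle. Of 81 nuclear genes, 6 fell and 0 rose, beside 3.93% of all genes called and 2.7% called lower, and the median was -0.14, beside a median near 0 over all genes. ATP5F1A had 328, 327 and 323 CPM at the high dose, against 398, 432 and 411 CPM at the low dose, with 377, 365 and 374 CPM at the medium dose (log2 fold change -0.34 ± 0.04, adjusted p = 2.62e-08, edgeR). UQCRC1, a core subunit of complex III, had 156, 153 and 153 CPM at the high dose, against 181, 197 and 180 CPM at the low dose, and 169, 156 and 174 CPM at the medium dose (-0.27 ± 0.05, adjusted p = 9.50e-05, edgeR). For both genes the high and low doses were fully apart. The remaining calls, named after their values were seen, were SDHA (above), ATP5F1B at -0.23, UQCRC2, the partner of UQCRC1, at -0.26, and NDUFV1, the subunit of complex I that accepts electrons from NADH, at -0.26. The first 5 of these 6 held without any single library and NDUFV1 did not, with adjusted p above 0.05 in 4 of 6 such fits. The low dose of Polygalae had the highest mean of all groups for each of these genes except UQCRC2. ATP5F1B and NDUFV1 had their lowest mean of all groups in vehicle, and the other genes at the high dose of Polygalae. UQCRC1 averaged 154 CPM at the high dose, 186 CPM at the low dose and 156 CPM in vehicle. The summed nuclear subunit level was 5005, 5186 and 5172 CPM at the high dose, against 5713, 6217 and 5370 CPM at the low dose. Vehicle libraries had 5057 to 5357 CPM. The GC slopes of the libraries differed too, with 0.16, -0.03 and 0.09 at the high dose, against 0.53, 0.53 and 0.05 at the low dose. None of the 6 calls ended with GC slope in the model.

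**Figure D4:**
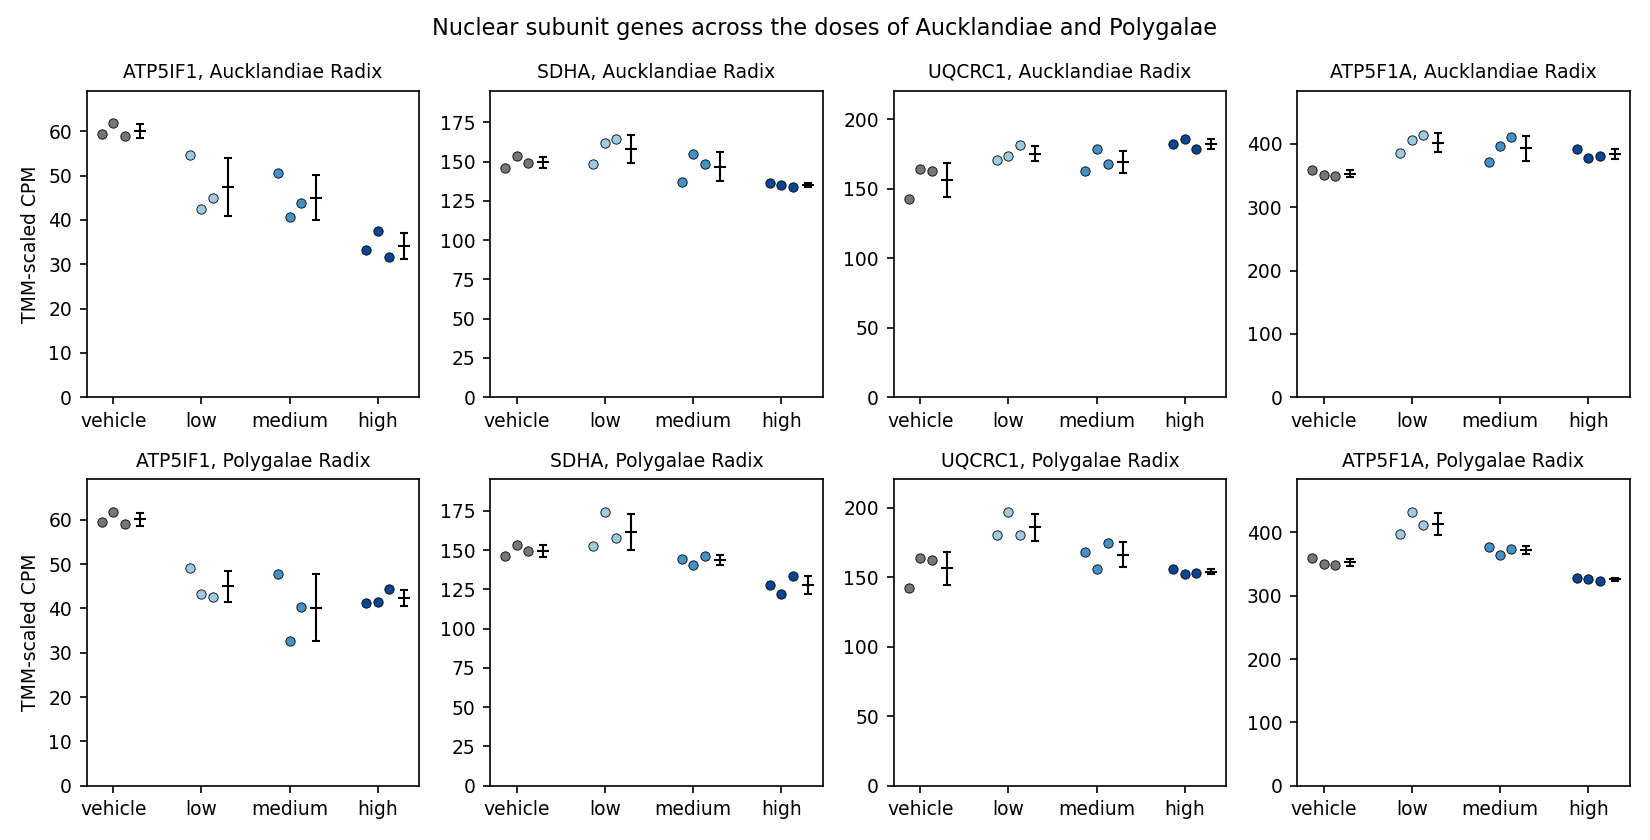
TMM-scaled CPM of ATP5IF1, SDHA, UQCRC1 and ATP5F1A in vehicle and at the low, medium and high dose of Aucklandiae Radix (upper row) and Polygalae Radix (lower row). Points are libraries and bars the mean ± SD of 3. SDHA declines with dose in both herbs, ATP5F1A and UQCRC1 decline with dose of Polygalae, and ATP5IF1 is lowest at the high dose of Aucklandiae (31.6 to 37.4 CPM).

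At the low dose Polygalae stood above vehicle for many nuclear genes while all mitochondrial genes fell. It gave 18 nuclear genes higher and 1 lower, ATP5IF1, beside 8.63% of all genes called higher and 7.01% called lower. Without the 4 libraries of lowest GC slope, which include vehicle replicate 1, 8 were higher and 1 lower. The shares of all genes above are of the main fit, and those of this refit are not given here. By complex, 8 of 37 rose in complex I, 1 of 4 in complex II, 2 of 10 in complex III, 4 of 12 in complex IV and 3 of 18 in complex V. They included ATP5F1A (398, 432 and 411 CPM, against 359, 350 and 349 CPM in vehicle; log2 fold change 0.23 ± 0.04, adjusted p = 7.96e-05) and NDUFB2 (21.0, 25.1 and 20.8 CPM, against 13.1, 16.2 and 15.7 CPM; 0.58 ± 0.11, adjusted p = 0.000167, edgeR). COX4I1, the regulatory subunit of complex IV, rose by 0.40 ± 0.10 (adjusted p = 0.00570), NDUFA4 by 0.43 ± 0.13 (adjusted p = 0.0178) and CYC1, cytochrome c1 of complex III, by 0.27 ± 0.09 (adjusted p = 0.0259, edgeR). These last 3 calls ended without vehicle replicate 1, with values of 0.34, 0.36 and 0.24. At the medium dose 1 nuclear gene rose, NDUFS1, and 4 fell, beside 11.7% of all genes called and 5.73% called lower. NDUFB2 overlaps BRAF and ADCK2, COX4I1 overlaps EMC8 and ATP5F1A overlaps HAUS1, and the strand setting of the counting is not given.

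The other 4 herbs showed no nuclear subunit call between high and low dose, beside 9.99% of all genes called for Schisandrae, 0.351% for Zizyphi, 0.00605% for Longan and 0% for Liriopis. DESeq2 called 0 in each as well, and the members with an unadjusted p under 0.05 numbered 0 for Schisandrae, Zizyphi and Longan and 1 for Liriopis. Between herbs of a code set at high dose, 0 of 81 were called for Schisandrae against Liriopis (10.9% of all genes, 2 members at an unadjusted p under 0.05) and for Zizyphi against Longan (0.0424%, 0 members), with 0 by DESeq2 too. In the main fit many genes thus differed between the doses of Schisandrae, with no subunit gene of either genome among those called. Without the filter on low counts, 6 mitochondrial genes were called lower.

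At the high dose of Aucklandiae 7 of 37 complex I genes were called higher than vehicle and none lower, beside 13.6% of all genes called higher and 12.5% called lower. Over the nuclear subunit genes of all complexes, the share called higher was near that of all genes. NDUFA9, an accessory subunit at the junction of the membrane and matrix arms, had 41.3, 42.6 and 40.3 CPM, against 31.8, 32.2 and 34.3 CPM in vehicle (log2 fold change 0.34 ± 0.05, adjusted p = 1.87e-06, edgeR). NDUFAB1, the mitochondrial acyl carrier protein, which serves lipoic acid and iron-sulfur synthesis as well as complex I, had 76.6, 82.7 and 67.3 CPM, against 51.8, 57.3 and 61.2 CPM (0.41 ± 0.09, adjusted p = 0.000197, edgeR). UQCRC1 had 183, 186 and 179 CPM, against 143, 164 and 163 CPM (0.22 ± 0.05, adjusted p = 0.000332, edgeR). No treated library overlapped with vehicle for these 3 genes, and the calls held without any single library. None of the 3 was called between high and low dose of Aucklandiae, where SDHA and ATP5IF1 were the only nuclear calls. NDUFA9 was above every vehicle library in 48 of 57 treated libraries. It was also called higher with Schisandrae (0.21 ± 0.05, adjusted p = 0.00426) and Zizyphi (0.20 ± 0.05, adjusted p = 0.0218) at high dose, and UQCRC1 with Schisandrae (0.15 ± 0.05, adjusted p = 0.0244), Zizyphi (0.18 ± 0.05, adjusted p = 0.0188) and wortmannin (0.19 ± 0.05, adjusted p = 0.00134, edgeR). Of these 5, NDUFA9 ended without Schisandrae high replicate 1 (0.15) and without 4 of 6 libraries for Zizyphi, and the UQCRC1 calls all ended without vehicle replicate 1 (0.10 to 0.12).

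Polygalae and Aucklandiae, which share a code set, differed at the high dose in 9 of 81 nuclear genes, beside 16.6% of all genes called and 9.03% called lower. In Polygalae 8 were lower and ATP5IF1 was higher. ATP5F1A had 328, 327 and 323 CPM with Polygalae, against 393, 378 and 381 CPM with Aucklandiae (log2 difference -0.24 ± 0.04, adjusted p = 1.69e-05, edgeR). UQCRC1 had 156, 153 and 153 CPM, against 183, 186 and 179 CPM (-0.24 ± 0.05, adjusted p = 0.000125), and NDUFA9 35.9, 34.8 and 37.2 CPM, against 41.3, 42.6 and 40.3 CPM (-0.20 ± 0.05, adjusted p = 0.00327, edgeR). These 3 held without any single library, and the other 6 did not. The doses are 450 and 500 µg/mL, so they are near but not equal.

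The dose effects of the 2 herbs were also set against each other, as a comparison added after the data had been seen. The high-against-low change was more negative with Polygalae than with Aucklandiae for UQCRC1 by 0.33 on the log2 scale (difference -0.33 ± 0.07, adjusted p = 0.000626) and for ATP5F1A (-0.28 ± 0.06, adjusted p = 0.000750, edgeR). Both differences held without any single library. In all 5 of 81 nuclear genes were called in this comparison, each lower, beside 6.82% of all genes called and 4.18% called lower. SDHA, which fell with dose in both herbs, was not among them. For Schisandrae against Liriopis and Zizyphi against Longan, edgeR and DESeq2 called 0 of 81 nuclear and 0 of 13 mitochondrial genes, and 2 and 0 nuclear genes had an unadjusted p under 0.05, beside 4.97% and 0% of all genes called.

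**Figure D5:**
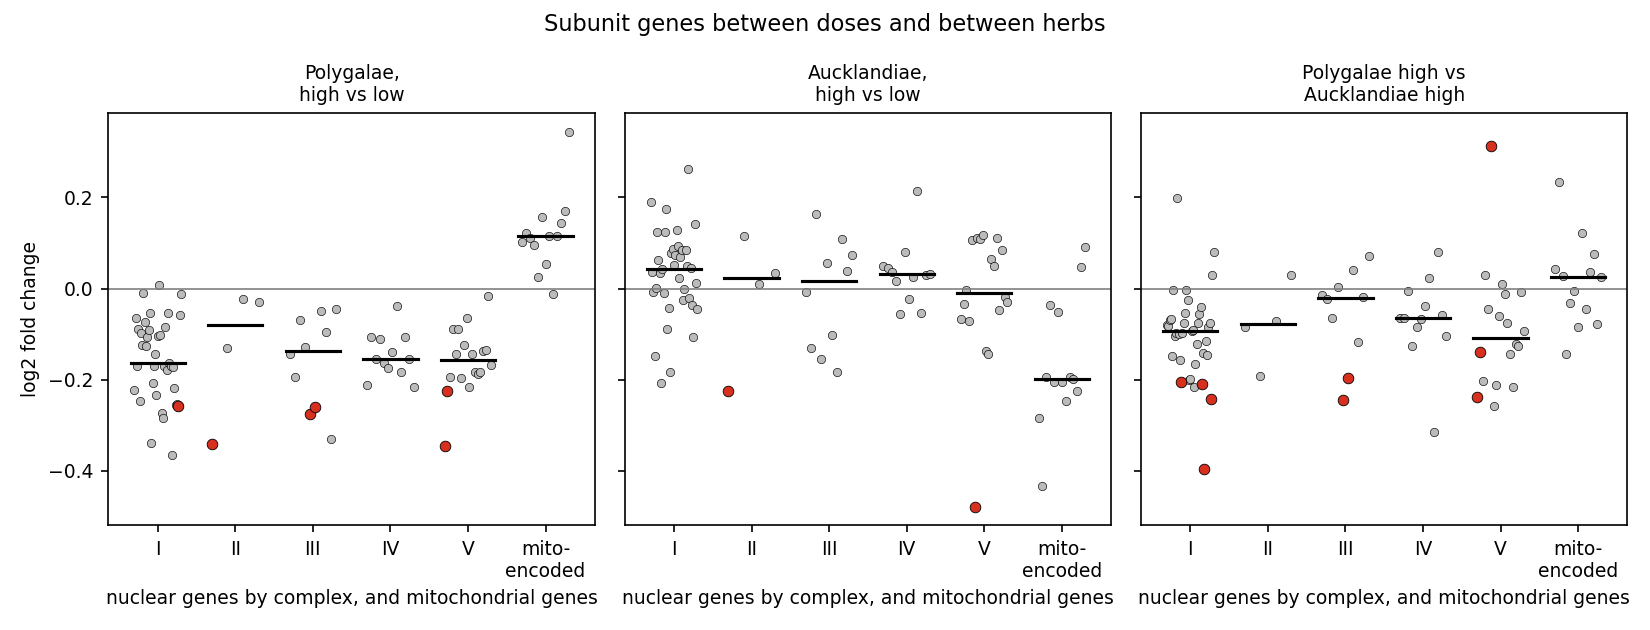
Log2 fold change of the nuclear subunit genes by complex, and of the 13 mitochondrial genes, for Polygalae high against low, Aucklandiae high against low, and Polygalae high against Aucklandiae high. Points are genes, red where the adjusted p is under 0.05 (edgeR), and bars are medians. With Polygalae the medians of all 5 complexes lie below 0 and that of the mitochondrial genes above it, at 0.11, with none of those called.

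With wortmannin subunit genes were called in both directions. UQCRC1 had 181, 176 and 179 CPM, against 143, 164 and 163 CPM in vehicle. NDUFV1 had 79.7, 76.5 and 74.8 CPM, against 57.3, 69.8 and 68.8 CPM (log2 fold change 0.24 ± 0.08, adjusted p = 0.0134, edgeR), and NDUFS6 27.3, 27.8 and 23.4 CPM, against 31.7, 36.5 and 33.8 CPM (-0.38 ± 0.13, adjusted p = 0.0222, edgeR). The libraries were apart in each case, but each of the 11 nuclear calls ended in at least 1 fit that left out a library. Of 78 mitochondrial ribosomal protein genes, 27 fell and 1 rose, with a median of -0.16 (all genes 0.01). Of 32 genes of mitochondrial RNA synthesis and processing, 12 fell and 0 rose (median -0.16), beside 16.2% of all genes called lower. Of 50 assembly factors, 3 rose and 6 fell (median -0.02). TFAM, which packages mitochondrial DNA and starts its transcription, fell by 0.25 on the log2 scale (adjusted p = 0.00636), TFB2M, its partner at the promoter, by 0.30 (adjusted p = 0.00123), and TWNK, the replicative helicase, by 0.30 (adjusted p = 0.000104, edgeR). CYCS, the electron carrier cytochrome c, fell by 0.27 (adjusted p = 0.00463, edgeR). Among regulators, PPRC1 fell by 0.58 (adjusted p = 1.45e-11) and PPARGC1A, the coactivator PGC-1alpha, which FOXO1 induces in liver, rose by 0.57 (adjusted p = 4.71e-07, edgeR). The TFAM and CYCS calls ended with GC slope in the model (-0.11 and -0.15).

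At the high dose of Aucklandiae 9 of the 32 mitochondrial RNA genes rose and 1 fell, and at that of Polygalae 7 rose and 0 fell, beside 13.6% and 10.2% of all genes called higher. POLRMT, the mitochondrial RNA polymerase, rose with Polygalae (0.34 ± 0.08, adjusted p = 0.00267) and Aucklandiae (0.26 ± 0.08, adjusted p = 0.0157) at high dose, where 9 of 13 mitochondrial mRNAs fell, and with Schisandrae (0.35 ± 0.08, adjusted p = 0.00198, edgeR). The Aucklandiae call ended without vehicle replicate 1 (0.19). Vehicle had the lowest POLRMT mean of the 20 groups, with 78.5, 92.7 and 92.3 CPM in replicates 1, 2 and 3. Of the 8 hepatocyte genes, 5 rose with wortmannin, 5 fell with Aucklandiae and 4 fell with Polygalae at high dose, and their part in these results was not tested. TFAM gave 0.06 ± 0.07 and -0.05 ± 0.07 with Polygalae and Aucklandiae and did not pass. ESRRA, a nuclear receptor that drives subunit genes together with PGC-1alpha, rose by 0.63 ± 0.14 (adjusted p = 0.000601) with Polygalae and by 0.52 ± 0.14 (adjusted p = 0.00332, edgeR) with Aucklandiae. Its mean too was lowest in vehicle among the 20 groups, with 17.3, 20.5 and 22.2 CPM in replicates 1, 2 and 3. Of 50 assembly factors, 10 rose with each of these herbs, and 0 fell with Polygalae and 2 with Aucklandiae. Against its low dose, Aucklandiae at high dose lowered NRF1, a transcription factor of nuclear subunit genes (-0.36 ± 0.08, adjusted p = 0.000619), and raised PPARGC1A (0.41 ± 0.08, adjusted p = 0.000290, edgeR). LRPPRC and SLIRP, which stabilise mitochondrial mRNAs, TEFM and GABPA were not called in wortmannin or at the high doses of Polygalae and Aucklandiae.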

How the data were processed

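RNA-seq of HepG2 cells gave 1 table of 60 libraries in 20 groups of 3. The authors deposited expected counts per gene; the submitters' processing notes name RSEM 1.3.3, STAR 2.7.3a, FastQC 0.11.9 and Trim Galore 0.6.5 and the build hg38/GRCh38, without saying which step each did. Per the labels' protocols the library kit was directional; the strand setting of the counting is not given in the sources used here. Expected counts were rounded to whole numbers and fitted over all 60 libraries with edgeR 4.0.16 (filterByExpr, TMM, quasi-likelihood test, Benjamini-Hochberg adjustment over 16517 genes, threshold 0.05), in R 4.3.3, after a test on simulated counts. SE is the log2 fold change divided by the root of F. Alternatives were RLE scaling, no filter, library sizes without mitochondrial genes, a replicate block, DESeq2 1.42.0 and leaving out 1 library at a time. Medium-dose libraries were never left out. For low and medium doses against vehicle, only vehicle libraries were left out. Chosen after seeing the data were a GC slope covariate, leaving out the 4 libraries of lowest GC slope, and the differences between dose effects. Gene lengths and overlaps come from GENCODE release 29 and promoters from RefSeq. Per comparison, up to 3 called nuclear genes in each direction with the smallest p and no overlap were named, plus a fixed list. Members and lists were chosen with earlier results of these data known. The values of 1 called gene are not reported here.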

Additional observations from a re-analysis of the deposited data

Results flagged for a closer look

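The following are differences between herbs that share a code set, each past an adjusted p of 0.05 in edgeR's test of the difference itself; the genes beyond the first 3 were named after their values were seen. Polygalae at high dose lay below Aucklandiae at high dose, on the log2 scale, by -0.24 for ATP5F1A, -0.24 for UQCRC1, -0.20 for NDUFA9, -0.14 for ATP5F1B, -0.20 for UQCRC2, -0.24 for NDUFV1 and -0.40 for NDUFS4, and above it by 0.31 for ATP5IF1. The high-against-low change differed between Polygalae and Aucklandiae by -0.33 for UQCRC1, -0.28 for ATP5F1A, -0.40 for NDUFV1, -0.63 for NDUFS4 and -0.19 for ATP5F1B. UQCRC1 and ATP5F1A held in both comparisons without any single library.

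MT-RNR1 at the high dose of Schisandrae lay above the high dose of Liriopis by 1.01, and the high-against-low change was 0.79 larger with Schisandrae than with Liriopis. Both held without any single library.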

How the results depend on the processing

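No named call changed direction. Of values that were not called, some mitochondrial fold changes turned positive without vehicle replicate 1 (up to 3 of 13, at Zizyphi high), and the mitochondrial median of Longan high against low was -0.01 with the GC slope covariate, beside 0.02. RLE scaling, library sizes without mitochondrial genes, DESeq2 and the replicate block left every count of called subunit genes within 1.5 times; the block gave 14 nuclear and 10 mitochondrial genes for Aucklandiae high against vehicle. Same-numbered libraries deviated together in 3 of 28 comparisons over 9243 genes, so the numbers were not taken as pairs.

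Without a filter on low counts more subunit genes were called, and the cause was not tested. Shares of all genes called are given for the main fit only. A change in subunit calls under another setting therefore cannot be set beside the change over all genes. Against vehicle the nuclear and mitochondrial counts were 17 and 13 for wortmannin, 16 and 13 for Schisandrae high, 12 and 5 for Zizyphi high, 8 and 12 for Longan high, 14 and 13 for Liriopis high, and 122 and 138 over the 12 medium and low doses; nuclear counts were 32 for Aucklandiae high and 27 for Polygalae high. Of high against low, mitochondrial counts were 9 for Aucklandiae, 6 for Schisandrae, 1 for Polygalae and 4 for Zizyphi, and nuclear counts 12 for Polygalae, 1 for Zizyphi and 2 for Liriopis. Between herbs at high dose, mitochondrial counts were 1 for Polygalae against Aucklandiae, 2 for Schisandrae against Liriopis and 2 for Zizyphi against Longan. For differences between dose effects they were 7 mitochondrial for Polygalae against Aucklandiae, 1 nuclear and 5 mitochondrial for Schisandrae against Liriopis, and 1 nuclear for Zizyphi against Longan.

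With the GC slope covariate the mitochondrial counts were 1 for wortmannin, 5 for Aucklandiae high and 15 over the 12 medium and low doses, and 1 nuclear gene was called for Longan high. Without the 4 libraries of lowest GC slope, the counts were 4 nuclear and 0 mitochondrial for wortmannin, 1 mitochondrial for Aucklandiae high, 4 nuclear and 2 mitochondrial for Polygalae high, 0 nuclear for Zizyphi high, and 14 nuclear and 3 mitochondrial over the medium and low doses.

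Leaving out 1 library at a time gave 2 to 7 nuclear and 1 to 5 mitochondrial genes for wortmannin, 10 to 14 and 1 to 10 for Aucklandiae high, 4 to 6 and 2 to 10 for Polygalae high, 2 to 3 nuclear for Schisandrae high and 0 to 2 nuclear for Zizyphi high. It gave 5 to 8 nuclear for Polygalae high against low, 3 to 7 for Polygalae against Aucklandiae, 2 to 7 for the difference of their dose effects, and, leaving out vehicle libraries, 15 to 30 nuclear and 3 to 25 mitochondrial over the medium and low doses. The mitochondrial counts against vehicle thus rest on vehicle replicate 1.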

Other observations

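The mitochondrial rRNAs also differed from vehicle outside Schisandrae. MT-RNR2 was lower with Polygalae at high dose (-0.53 on the log2 scale), medium dose (-0.38) and low dose (-0.57) and with Aucklandiae at high dose (-0.35), and MT-RNR1 was lower with Polygalae at low dose (-0.47), each past an adjusted p of 0.05 in edgeR. These comparisons share the vehicle libraries. MT-RNR2 had 34448, 28875 and 28673 CPM in vehicle replicates 1, 2 and 3, and its fold changes without replicate 1 are not given here.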
